A study of Mus musculus with 20 samples.

Results

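A set of 248 chromatin regions, of 143246 accessible regions in all, had an ATAC-seq peak in uninjured mouse cardiac fibroblasts, none 3 days after myocardial infarction (MI), and a peak again 4 weeks after it. ATAC-seq uses a transposase that inserts adapters into accessible DNA, and a peak marks a stretch with many insertions. The peaks of the 10 deposited lists on chromosomes 1 to 19 and X were merged wherever they overlapped by 1 bp or more. A merged region was a member when it held a peak in both uninjured and both week 4 libraries and in neither day 3 library. Each member was linked to the nearest gene span within 100 kb, and to every gene whose span it overlapped. The loss at day 3 and the return at week 4 therefore chose the regions and are not results. The day 7 and week 2 peaks helped to set the borders of the merged regions but were not part of the condition, and RNA values were not used in the choice.

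The cells were eGFP+ cardiac fibroblasts of the Tcf21 lineage, sorted from digested hearts with a gate set on eGFP- wild-type cells. All mice, the uninjured ones included, were given tamoxifen at 75 mg/kg/day for 5 days, which activates a MerCreMer recombinase and so fixes the label in cells that express Tcf21, a gene for a helix-loop-helix factor that resident fibroblasts of the heart express, and in the cells that descend from them. The 5 groups were uninjured hearts and, after MI, hearts of day 3, day 7, week 2 and week 4, with 2 ATAC-seq and 2 RNA-seq libraries each, and RNA came from 10000 sorted cells. The labels give no age, sex, strain or sham operation, and do not say whether 2 libraries of a group came from different mice, so a p-value reflects only how far these libraries spread, which may be technical.

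Fibroblasts respond to infarction in stages. In the first days they leave the resting state and proliferate, then they turn into matrix-secreting myofibroblasts, and in the mature scar many become quieter cells that keep a matrix program of their own. Distal accessible sites are often enhancers, where transcription factors displace nucleosomes, whereas promoters of expressed genes tend to stay accessible through such changes.

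No genome sequence of the build of the peak lists (mm10, GRCm38) was used here, so the bases of whole regions are not printed. The RefSeq tables of the same build (GRCm38.p6) gave the following sequences, each read 5′ to 3′ on the strand of the gene. The first 3 are the 250 bases upstream of the start of Cpxm2 and Fmod, the genes with the largest log2 fold changes among the linked genes that passed the RNA test of week 4 against day 3, and of Clic4, the gene with the most member regions. The fourth is the same window of the noncoding gene Gm52214, which lies inside a member region, so it is accessible DNA of the set itself. Capitals mark matches, on either strand, to short motifs of AP-1 (TGANTCA), TEAD (GGAATG), RUNX (TGTGGT), an E-box (CAGCTG), SP factors (GGGCGG), CEBP (TTGCNNAA) and the SRF CArG box.
Cpxm2, chr7:132154742-132154991, minus strand: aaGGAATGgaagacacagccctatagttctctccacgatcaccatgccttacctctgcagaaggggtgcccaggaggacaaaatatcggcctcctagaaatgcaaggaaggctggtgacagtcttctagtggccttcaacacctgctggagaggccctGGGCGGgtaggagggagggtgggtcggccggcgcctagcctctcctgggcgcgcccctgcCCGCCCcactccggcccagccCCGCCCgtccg
Fmod, chr1:134037004-134037253, plus strand: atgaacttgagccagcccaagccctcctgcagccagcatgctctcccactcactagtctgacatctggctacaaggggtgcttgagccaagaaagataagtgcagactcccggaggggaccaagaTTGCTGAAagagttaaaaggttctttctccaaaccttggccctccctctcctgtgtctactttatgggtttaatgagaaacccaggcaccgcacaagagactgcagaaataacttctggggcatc
Clic4, chr4:135272761-135273010, minus strand: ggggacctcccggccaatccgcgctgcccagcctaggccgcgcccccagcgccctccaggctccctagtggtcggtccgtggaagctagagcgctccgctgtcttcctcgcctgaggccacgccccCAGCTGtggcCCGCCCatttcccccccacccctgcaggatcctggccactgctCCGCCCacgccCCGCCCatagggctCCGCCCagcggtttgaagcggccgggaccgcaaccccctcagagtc
Gm52214, chr15:10708813-10709062, plus strand: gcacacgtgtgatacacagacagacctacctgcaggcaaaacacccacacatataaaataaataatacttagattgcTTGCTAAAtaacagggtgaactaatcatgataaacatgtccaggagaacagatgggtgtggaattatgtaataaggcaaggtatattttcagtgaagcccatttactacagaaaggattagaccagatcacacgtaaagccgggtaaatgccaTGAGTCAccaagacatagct

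The Cpxm2 window held 1 TEAD and 3 SP matches, the Fmod window 1 CEBP match, and the Clic4 window 4 SP matches and 1 E-box. The Gm52214 window held 1 AP-1 match and 1 CEBP match. It lies in the member at chr15:10707393-10709170 within the span of Rai14, which encodes an actin-binding protein. A match describes letters and does not show binding.

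The 250 bases upstream of the start were searched in 1 RefSeq window per gene for the 11019 tested genes that have an entry, of which 132 were linked to members. The E-box CAGCTG, a form bound by basic helix-loop-helix factors, was present in 28 of the 132 (21.2%), against 11.9% of all 11019. The general E-box CANNTG was present in 61.4% against 57.5%. More motifs were searched than are named here, and no difference was tested. The SP motif was present in 54.5% against 57.0%, the AP-1 motif in 6.06% against 4.46%, the TEAD motif in 9.85% against 10.7% and the RUNX motif in 10.6% against 10.9%. These shares are descriptions of the promoters of linked genes and not of the regions.

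Members also contained 2 microRNA genes whose mature sequences are in RefSeq. MicroRNAs are short RNAs that lower the output of messages matching their seed, shown in capitals (bases 2 to 8). Mir7060 lies in the member at chr7:127488932-127490817, in the span of Fbrs, and Mir770 in the member at chr12:109561918-109564712, linked to the imprinted gene Rtl1.
mmu-miR-7060-5p: gUGAGUGCuggguagaauggga
mmu-miR-770-5p: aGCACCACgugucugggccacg
mmu-miR-770-3p: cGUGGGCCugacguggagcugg

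The 3 seeds differ from each other. Mature microRNAs were not measured in these libraries.

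Of the 52709 regions with a peak in both uninjured libraries, 1556 had no peak in either day 3 library. Of these, 248 had a peak in both week 4 libraries, 336 in 1 of them and 972 in neither. The deposited lists differed in length: 63882 and 71878 peaks in the uninjured libraries, 105647 and 107774 at day 3, 93661 and 88250 at day 7, 77885 and 79654 at week 2, and 69207 and 70123 at week 4. The day 3 lists were thus the longest, and their weakest listed peaks had the lowest fold enrichment over background (2.40 and 2.24, against 2.81 and 2.57 in the uninjured lists). Fold enrichment is the authors' own value for each peak. It is used here to describe and rank peaks, and a member's minimum fold, taken over its 4 uninjured and week 4 peaks, mixes lists of different length and is a description only. A member is a region without a listed day 3 peak, and the read depth behind the lists is unknown, so accessibility below the peak threshold was not measured.

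The members were weak peaks of their lists. The median fold enrichment of member peaks was 4.37 and 4.12 in the uninjured libraries, where the medians of all listed peaks were 8.11 and 7.21, and this placed the median member at percentiles 19.7 and 23.2. At week 4 the member medians of 4.07 and 3.78 stood at percentiles 27.0 and 27.9. The strongest peaks over a member reached fold 14.7 and 14.9 in the uninjured libraries and 15.7 and 16.1 at week 4. Just inside the rule, the weakest of a member's 4 uninjured and week 4 peaks had a median fold of 3.43, and in 39 members it was below 3. Just outside it stood 535 regions with a peak in both uninjured and both week 4 libraries and in only 1 day 3 library, whose single day 3 peak had a median fold of 3.60 and was below 3 in 95.

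The return of the regions was spread over the later times. A peak was present over 123 of the 248 members (49.6%) in day 7 library 1, 76 (30.6%) in day 7 library 2, 156 (62.9%) in week 2 library 1 and 187 (75.4%) in week 2 library 2. Both day 7 libraries held one at 52 members (21.0%) and both week 2 libraries at 138 (55.6%), so both week 2 libraries had more members open than either day 7 library. The fuller of the day 7 libraries also had the longer list. When the rule was applied without day 3 library 1 it took 562 regions, of which 35.2% had a peak in both day 7 libraries, and without week 4 library 2 it took 462, of which 13.9% did. These shares were not tested: the smallest 2-sided p of an exact permutation test of 2 libraries against 2 is 0.333.

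Regions lost at day 3 and not regained gave much lower shares at the same times: 14.9% and 3.40% in the day 7 libraries and 9.47% and 13.3% in the week 2 libraries, with both libraries at 1.44% and 3.19%. The week 4 condition of the rule separates these sets, and neighbouring times share peaks with week 4. Among all 42073 regions with a peak in both uninjured and both week 4 libraries, 94.8% had a peak in both day 7 and 96.5% in both week 2 libraries, and among all merged regions 44.9% and 40.3% did. The 535 regions with 1 day 3 peak lay between the 42073 regions and the members, with 43.9% and 69.7%.

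**Figure D1:**
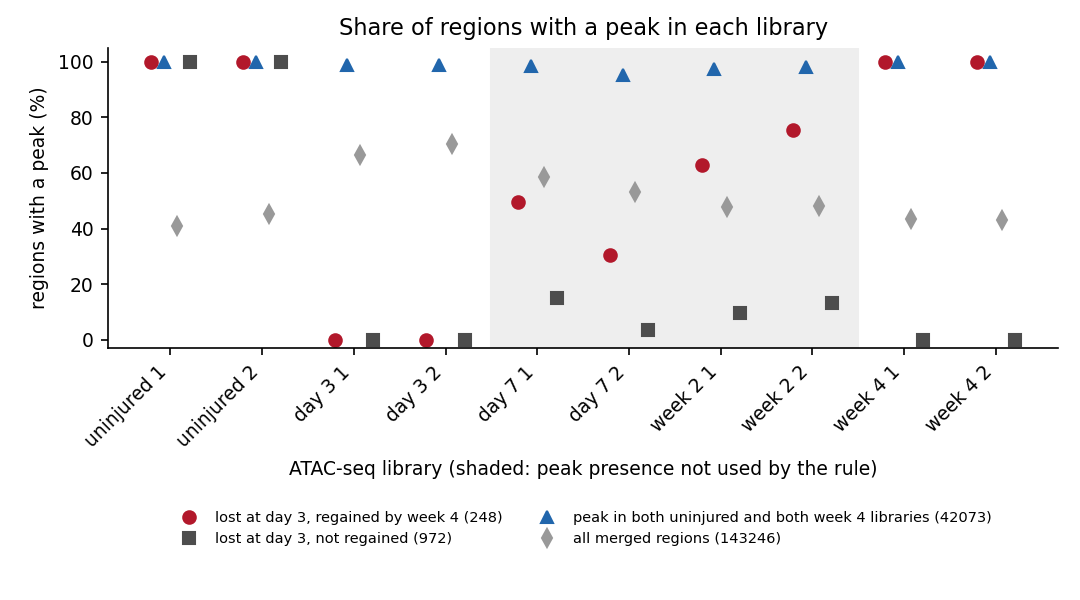
Share of regions with an ATAC-seq peak in each of the 10 libraries (percent, y axis), for the 248 regions, the 972 lost and not regained, the 42073 with a peak in both uninjured and both week 4 libraries, and all 143246; points of a library are offset sideways for visibility. In the shaded libraries, which set region borders but were not part of the condition, the 248 stand at 49.6%, 30.6%, 62.9% and 75.4%, and the 972 at 14.9% or less.

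By the time of their return the members fell into 4 classes. In 52 (21.0%) both day 7 libraries held a peak. In 91 (36.7%) both week 2 libraries did, without both at day 7. A further 72 (29.0%) had a peak in 1 library of day 7 or week 2 or in 1 of each, and 33 (13.3%) had none before week 4. The early class had the higher peaks within the week 2 lists, with median folds of 6.80 and 5.84, against 4.31 and 4.78 in the class of both week 2 libraries and 3.98 and 3.98 in the partial class. The 33 that returned at week 4 only had median folds of 3.49 and 3.02 there, against 5.53 and 4.66 in the early class. In the uninjured libraries the medians were 4.06 and 4.38 in the week 4 only class and 5.31 and 4.25 in the early class.

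**Figure D2:**
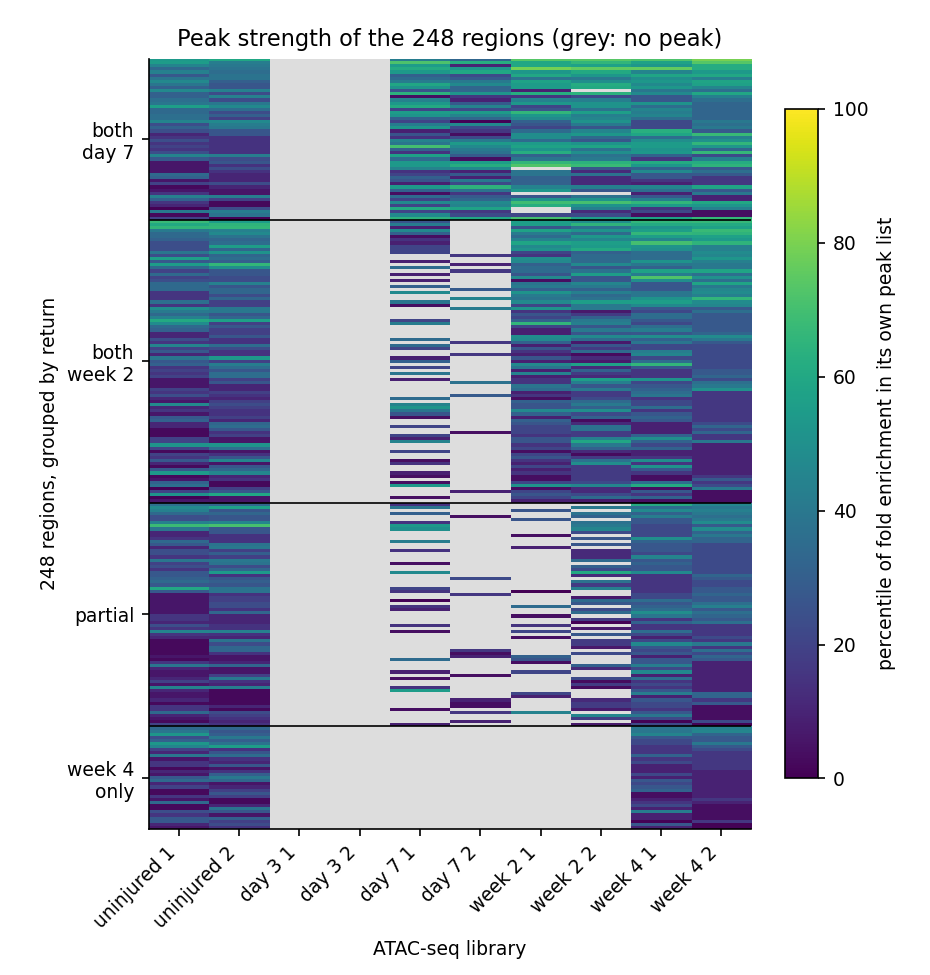
Percentile of each member's peak by fold enrichment within its own peak list (colour, 0 to 100) for the 248 regions (rows) in 10 libraries (columns), grouped by return (52, 91, 72 and 33 regions) and ordered by the lowest fold over the uninjured and week 4 libraries; grey means no peak. The day 3 columns are empty by the rule, and the day 7 columns are sparser than the week 2 columns.

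The members were mid-sized. Their median width was 1552 bp (quartiles 1216 and 2452, range 620 to 8660), against 2670 bp for the regions with a peak in both uninjured and both week 4 libraries, 906 bp for those lost and not regained, and 1169 bp for all merged regions. A gene span held 163 (65.7%), and 29 (11.7%) lay within 1 kb of an end of a gene. The share in a gene span was 60.4% among all merged regions, 67.5% among regions with a peak in both uninjured and both week 4 libraries and 48.8% among those lost and not regained. The shares near a gene end were 32.1% among regions with a peak in both uninjured and both week 4 libraries, 14.5% among all merged regions and 3.91% among those lost and not regained. Exons and introns were not told apart.

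Wide and narrow members lay in different places. The 90 members of 2 kb or more (36.3%, median 2875 bp) were in a gene span in 84.4% of cases, with a median of 6330 bp to the nearest gene end. The 158 narrower ones were in a gene span in 55.1%, with a median of 33620 bp. Day 3 peaks were often close by: the median distance to the nearest was 3116 bp over all members, 1931 bp for the wide and 4306 bp for the narrow ones, and 22 members had a day 3 peak within 500 bp. In such places a day 3 peak was listed beside the member, and whether the border of a peak had shifted was not tested.

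The member with the highest minimum fold lay in Cpxm2, with 2 more members beside it. Cpxm2 encodes a secreted protein of the carboxypeptidase family without known enzyme activity. The 3 regions are at chr7:132087955-132089900, chr7:132090965-132092416 and chr7:132094290-132095778, within the gene's span (chr7:132032687-132154739) and 64.8, 62.3 and 59.0 kb from its start. The deposited table gives Fgfr2, a fibroblast growth factor receptor, a span of chr7:130162451-133123350 that covers Cpxm2, so the rule linked the 3 regions to both genes.

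The first of these regions had the highest minimum fold of all members. Its peak had fold 9.05 and 9.52 in the uninjured libraries, no peak at day 3, 4.83 and 3.97 at day 7, 15.3 and 14.3 at week 2 and 12.8 and 16.1 at week 4. In its own lists the peak stood at percentiles 54.1 and 59.6 when uninjured, 42.0 and 33.2 at day 7, 73.8 and 74.1 at week 2 and 71.9 and 79.5 at week 4. Rank within the lists was thus higher at week 2 and week 4 than before injury, although ranks from lists of different lengths show no change by themselves. The second region stood at percentiles 23.9 and 35.7 when uninjured and at 70.3 and 64.9 at week 4, and the third at 34.0 and 38.0 and then at 56.2 and 57.1. Both had a peak in only day 7 library 1 of the day 7 pair, and both were present in each week 2 library.

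The rest of the gene did not lose its peaks. A peak 34 kb from the first region towards the gene start was listed in all 10 libraries, with fold 12.5 and 12.9 when uninjured and 16.6 and 16.9 at day 3. Another peak, 48 kb away, was listed at day 3 (7.92 and 6.73) and at every later time but in neither uninjured library. The nearest day 3 peak was 32582 bp from the first region. The peak at the Cpxm2 promoter had fold 4.37 and 5.41 when uninjured, 5.04 in day 3 library 1, 6.44 and 7.70 at day 7, 13.3 and 12 at week 2 and 11.9 and 11.6 at week 4. In day 3 library 2 no peak overlapped the promoter window, and a peak of fold 4.08 lay next to it.

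**Figure D3:**
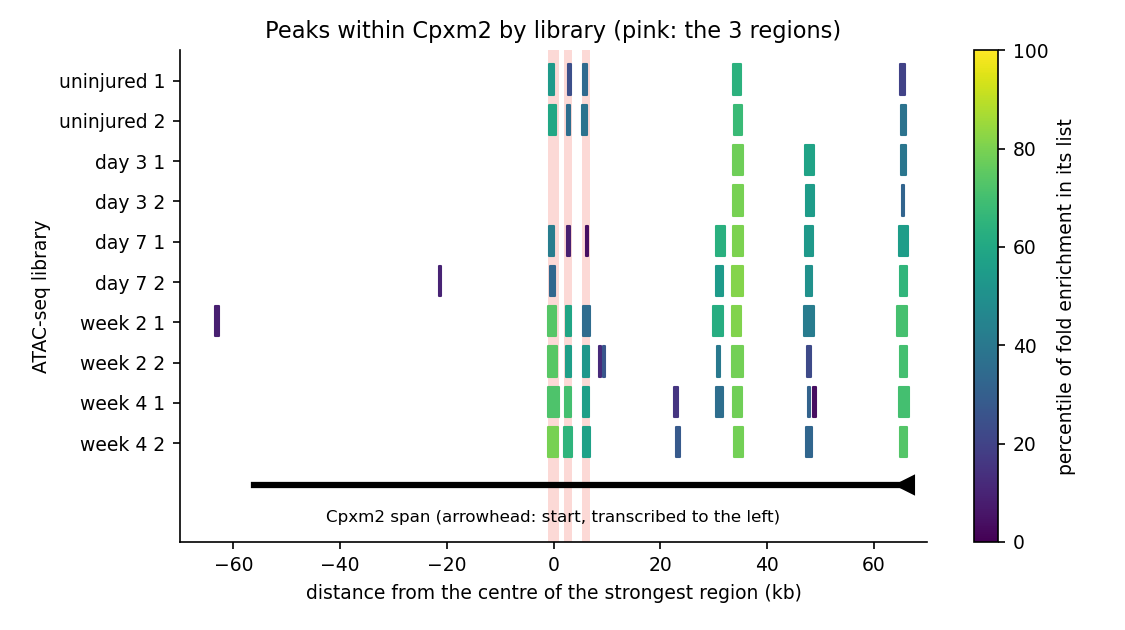
ATAC-seq peaks within Cpxm2 in each of the 10 libraries (rows), placed by distance from the centre of the strongest region (kb) and coloured by percentile of fold enrichment in the library's list; pink bands mark the 3 members and the black line the gene. The bands are empty in both day 3 rows, while the peaks at about 34 and 66 kb are present in all 10.

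Cpxm2 RNA was lowest at day 3, when the regions had no peak, but the courses differed at day 7. The RNA was then above uninjured, while the fold of the first region was below its uninjured fold. The RNA level in CPM (counts scaled to the size of the library) was 26.3 and 18.4 in the uninjured libraries, 7.5 and 0.8 at day 3, 61.5 and 76.2 at day 7, 333 and 359 at week 2, and 221 and 252 at week 4. Both day 3 libraries were below both uninjured ones, and all 6 later libraries were above them. The log2 fold change of day 3 against uninjured was −2.43 ± 0.70 (SE, n = 2 per group), which missed the threshold (edgeR quasi-likelihood test, Benjamini-Hochberg adjusted p = 0.060). It passed with DESeq2, with no filter on low counts, and without either day 3 library. Week 4 against day 3 gave 5.83 ± 0.80 (edgeR adjusted p = 0.0029) and week 4 against uninjured 3.40 ± 0.70 (edgeR adjusted p = 0.046). Fgfr2 was at 0.0 to 11.1 CPM and passed in none of the 5 comparisons, although week 4 against day 3 passed with DESeq2 and without RNA day 3 library 1.

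Several other strong members lay far from any gene end. One at chr10:86211263-86212745 in Syn3, a synapsin gene in whose span Timp3 lies, had fold 14.4 and 8.24 when uninjured, 3.76 in day 7 library 1, 7.97 and 6.38 at week 2, and 9.89 and 8.81 at week 4. Another at chr4:105947792-105949289 had fold 11.2 and 11.6 when uninjured and 8.44 and 7.30 at week 4, and its nearest gene end was 153081 bp away. One more, at chr12:9450260-9451513, had fold 13.4 and 12.1 when uninjured, 2.95 in day 7 library 1, 4.31 and 5.05 at week 2, and 6.40 and 6.55 at week 4. Its nearest gene end was that of Osr1, a transcription factor gene of mesenchymal cells, at 118603 bp and so beyond the 100 kb used for links. The remaining 4 of the 8 strongest members were in Lrmda (chr14:22959645-22960972), 103871 bp from Lpin1 (chr12:16430571-16431798), at Adgrv1 (chr13:81093978-81095289) and 33891 bp from Mbnl1 (chr3:60437412-60438939). All 8 had peaks in both week 2 libraries, and 3 of them in both day 7 libraries.

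In all, 221 members were linked to 207 genes, 27 had no gene within 100 kb, and 10 were linked to more than 1 gene. RNA was tested for 183 of the 207, while 24 did not pass the filter on low counts, 16 of them with no count in any library. RNA libraries held 16397211 to 21043997 counts. Since these are bulk samples, fewer cells of a type and less RNA per cell cannot be told apart.

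At day 3 against uninjured, 20 of the 183 linked genes were lower (10.9%) and 19 higher (10.4%) by edgeR at an adjusted p under 0.05. Over all 14968 genes tested, 4.40% were lower and 7.39% higher. The median log2 fold change was −0.36 among the linked genes and −0.02 over all genes, and 63 of the 183 (34.4%) had a positive value, against 48.6% of all. Lower genes thus made up a larger part of the linked genes than of all genes, and the shares of higher genes lay closer together. Genes linked to the regions lost and not regained were lower in 13.9% and higher in 3.66% of 546, and 38 linked genes belong to both sets. The counts given next, from fits that leave out a library, come without the share over all genes in the same fit. Without RNA day 3 library 2, the linked counts were 7 lower and 7 higher, without RNA day 3 library 1 the lower count was 31, and without an uninjured RNA library it was 10 (library 2) and the higher count was 6 (either library).

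Changes after day 3 ran in both directions too. Day 7 against day 3 gave 6 higher and 2 lower linked genes (3.28% and 1.09%, against 0.822% and 0.555% of all genes). Week 2 against day 3 gave 20 higher and 10 lower (10.9% and 5.46%, against 3.81% and 5.59%), with a median log2 fold change of 0.31 against −0.00 over all genes. Week 4 against day 3 gave 24 higher and 17 lower (13.1% and 9.29%, against 5.84% and 7.52%), with medians of 0.18 and 0.04. Week 4 against uninjured gave 8 higher and 2 lower (4.37% and 1.09%, against 1.85% and 0.474%). These comparisons share the day 3 or the uninjured libraries. For the fits below that leave out a library, the share over all genes is likewise not given. Without RNA day 3 library 2, the higher counts were 2, 6 and 11 at day 7, week 2 and week 4 against day 3, and the lower counts at week 2 and week 4 were 3 and 6. Without RNA week 4 library 1, week 4 against day 3 gave 9 higher and 4 lower, and without RNA week 4 library 2 it gave 9 lower. The higher count at day 7 against day 3 was 12 without RNA day 3 library 1, and 3 and 1 without RNA day 7 libraries 1 and 2. At week 4 against uninjured the higher count was 2 without RNA uninjured library 2 or RNA week 4 library 1, and 5 without RNA uninjured library 1.

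**Figure D4:**
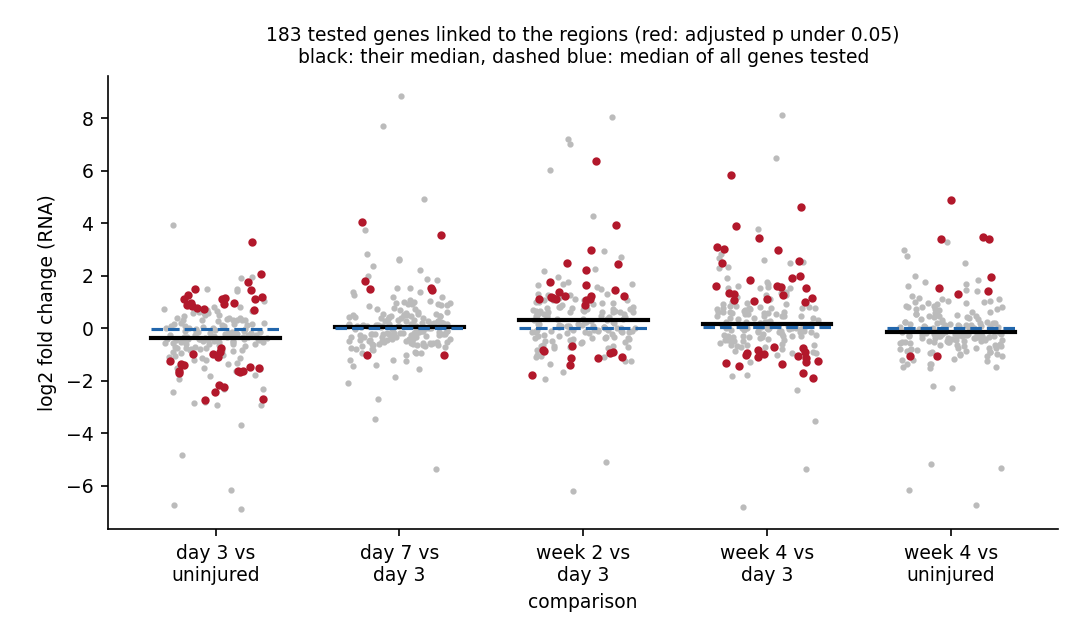
Log2 fold change in RNA (y axis) of the 183 tested linked genes in 5 comparisons, 1 point per gene with sideways scatter for visibility; red points have an edgeR adjusted p under 0.05, black bars are the medians of the linked genes and dashed blue bars those of all 14968 genes. The black bar is at −0.36 for day 3 against uninjured and at 0.31 for week 2 against day 3.

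Of the 183 linked genes, 10 (5.46%) were lower at day 3 and higher at week 4 than at day 3, against 2.41% of all genes tested. The opposite course, higher at day 3 and then lower at week 4, was found for 11 (6.01%), against 4.86% of all. Grouped by the return of their region, the 45 genes of the early class had 10 higher and 1 lower at week 4 against day 3 (22.2% and 2.22%, against 5.84% and 7.52% of all genes), and 4 higher at day 7 against day 3 (8.89%, against 0.822%). The 66 genes of the class of both week 2 libraries had 8 higher and 8 lower at week 4 against day 3 (12.1% each), the 60 of the partial class 8 and 5 (13.3% and 8.33%), and the 25 of the class that returned at week 4 only 3 and 4 (12% and 16%). No test of the difference between classes was made, and a gene with several regions can stand in more than 1 class.

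The 10 genes that fell at day 3 and were higher at week 4 were Fbln1, Il16, Dkk3, Timp3, Chn2, Timp2, Clic4, Dcn, Sspn and Zbtb20. Fbln1 encodes fibulin 1, a glycoprotein of elastic fibres and basement membranes, and its region at chr15:85250924-85253170 lies within the gene. The region had fold 11.2 and 8.75 when uninjured, 3.49 in day 7 library 1, 4.65 and 5.31 at week 2, and 4.07 and 3.78 at week 4. Fbln1 RNA was at 1074 and 865 CPM in the uninjured libraries, 198 and 91.2 at day 3, 490 and 332 at day 7, 1285 and 976 at week 2, and 2042 and 2237 at week 4. Every day 3 library was below every other library. The log2 fold change was −2.75 ± 0.35 at day 3 against uninjured (edgeR adjusted p = 0.00059) and 3.89 ± 0.36 at week 4 against day 3 (edgeR adjusted p = 0.00017).

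Dkk3 encodes a secreted glycoprotein of the dickkopf family, whose other members inhibit Wnt signalling. Its region, 3501 bp at chr7:112169674-112173174, starts 10617 bp beyond the gene and was present in both day 7 libraries. It had fold 4.99 and 5.41 when uninjured, 4.03 and 3.48 at day 7, 8.96 and 6.91 at week 2, and 7.86 and 7.05 at week 4. Dkk3 RNA was at 489 and 439 CPM uninjured, 177 and 125 at day 3, 486 and 579 at day 7, 1004 and 660 at week 2, and 1267 and 1195 at week 4. The day 3 values were the lowest, and the week 2 and week 4 values were all above the uninjured ones. It fell by 1.62 ± 0.25 on the log2 scale at day 3 (edgeR adjusted p = 0.0017), and was higher than at day 3 by 1.82 ± 0.25 at day 7 and 3.03 ± 0.27 at week 4 (edgeR adjusted p = 0.0073 and 0.00017). At week 4 it was above uninjured by 1.41 ± 0.25 (edgeR adjusted p = 0.012).

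Timp3 and Timp2 encode inhibitors of the metalloproteinases that cut matrix proteins. The region in Timp3 is one of the widest (6723 bp, chr10:86318376-86325098), overlaps Syn3 as well, and was present in all day 7 and week 2 libraries. Timp3 RNA was at 2463 and 2851 CPM uninjured, 823 and 361 at day 3, 1775 and 1332 at day 7, 2738 and 2714 at week 2, and 5122 and 4208 at week 4. It fell by 2.17 ± 0.33 on the log2 scale at day 3 (edgeR adjusted p = 0.0017), and week 4 was above day 3 by 2.98 ± 0.35 (edgeR adjusted p = 0.00043). For Timp2, with a region of 2908 bp in its span, the log2 fold change was −1.64 ± 0.34 at day 3 and 1.55 ± 0.34 at week 4 against day 3 (edgeR adjusted p = 0.0097 and 0.012). Both Timp2 calls were lost without RNA day 3 library 2, and the second also without RNA week 4 library 1.

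Dcn encodes decorin, a small proteoglycan that binds collagen and TGF-beta. It had a region of 2368 bp within the gene, which returned at week 4 only, and one 80901 bp away. Its RNA was at 19800 and 24090 CPM uninjured, 8756 and 5120 at day 3, 7865 and 6872 at day 7, 14260 and 10300 at week 2, and 15590 and 14180 at week 4. Day 3 and day 7 did not separate, and week 4 stayed below both uninjured libraries. Dcn fell by 1.66 ± 0.29 on the log2 scale at day 3 (edgeR adjusted p = 0.0032). Week 4 was above day 3 by 1.10 ± 0.29 (edgeR adjusted p = 0.024), a call lost without RNA day 3 library 2 or either week 4 library.

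Clic4, a chloride intracellular channel family gene linked to myofibroblast conversion, had 4 regions within its span, between 1527 and 6511 bp wide. The widest, chr4:135218469-135224979, had fold 7.49 and 6.18 when uninjured, 3.76 and 3.97 at day 7, 3.32 in week 2 library 1, and 4.95 and 4.28 at week 4. Clic4 RNA was at 589 and 580 CPM uninjured, 301 and 292 at day 3, 377 and 304 at day 7, 550 and 545 at week 2, and 893 and 809 at week 4. Both day 3 libraries were below every other library, with day 7 library 2 close to them. The log2 fold change was −0.98 ± 0.19 at day 3 and 1.52 ± 0.20 at week 4 against day 3 (edgeR adjusted p = 0.0063 and 0.00076), and the first call was lost without RNA day 3 library 2. The peak at its promoter, whose upstream bases are shown above, was present in all 10 libraries, at fold 63.6 and 56.1 at day 3.

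The other 4 genes with this course were Il16, a cytokine precursor gene, Chn2, encoding a Rac GTPase-activating protein, Sspn, encoding sarcospan of the dystrophin complex, and Zbtb20, a zinc finger transcription factor gene with 2 regions. Their log2 fold changes were between −2.71 and −0.996 at day 3 and between 0.99 and 3.44 at week 4 against day 3. Il16 was low, at 1.3 to 24.1 CPM over all libraries, and Chn2 at 3.3 to 47.2. At week 4 against day 3 the calls of Il16, Chn2, Sspn and Zbtb20 were each lost without RNA day 3 library 2 and without RNA week 4 library 1. Zbtb20, with an adjusted p of 0.048 by edgeR, also lost this call without any 1 of 4 other libraries. The day 3 calls of Il16, Chn2 and Sspn were lost without RNA day 3 library 2 and without RNA uninjured library 2, and that of Sspn also without RNA uninjured library 1.

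Fmod was above its uninjured level at week 4. It encodes fibromodulin, a collagen-binding proteoglycan of tendon and scar. Its region, chr1:134051018-134052722, lies 2741 bp beyond the gene, returned at week 4 only with fold 3.49 and 3.27, and had a day 3 peak 323 bp away. Fmod RNA was at 120 and 110 CPM uninjured, 72.1 and 26.3 at day 3, 382 and 777 at day 7, 987 and 521 at week 2, and 1303 and 1094 at week 4. Thus the RNA was already above uninjured at day 7, when the region had no peak. Day 3 against uninjured did not pass (log2 fold change −1.22 ± 0.49, edgeR adjusted p = 0.15), although it did with DESeq2, with no filter on low counts and without RNA day 3 library 1. In contrast, week 4 was above day 3 by 4.61 ± 0.56 and above uninjured by 3.38 ± 0.52 (edgeR adjusted p = 0.0012 and 0.011). The Fmod promoter, shown above, had a peak in all 10 libraries, at fold 5.62 and 7.46 uninjured, 12.7 and 9.59 at day 3, and 13.4 and 11.6 at week 4.

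Ltbp2 encodes a matrix protein of microfibrils related to the latent TGF-beta binding proteins, and it did not follow its region. The region at chr12:84830864-84832743 within the gene had fold 4.06 and 3.60 uninjured, 4.03 and 4.47 at day 7, 6.97 and 5.05 at week 2, and 6.40 and 4.03 at week 4. Ltbp2 RNA was at 16.7 and 9.3 CPM uninjured, 113 and 141 at day 3, 282 and 417 at day 7, 245 and 259 at week 2, and 473 and 302 at week 4. All 8 libraries after MI were above both uninjured ones. Its log2 fold change at day 3 was 3.29 ± 0.34, at the time when the region had no peak (edgeR adjusted p = 0.00015), and week 4 was above uninjured by 4.90 ± 0.36 (edgeR adjusted p = 3.2e-05).

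**Figure D5:**
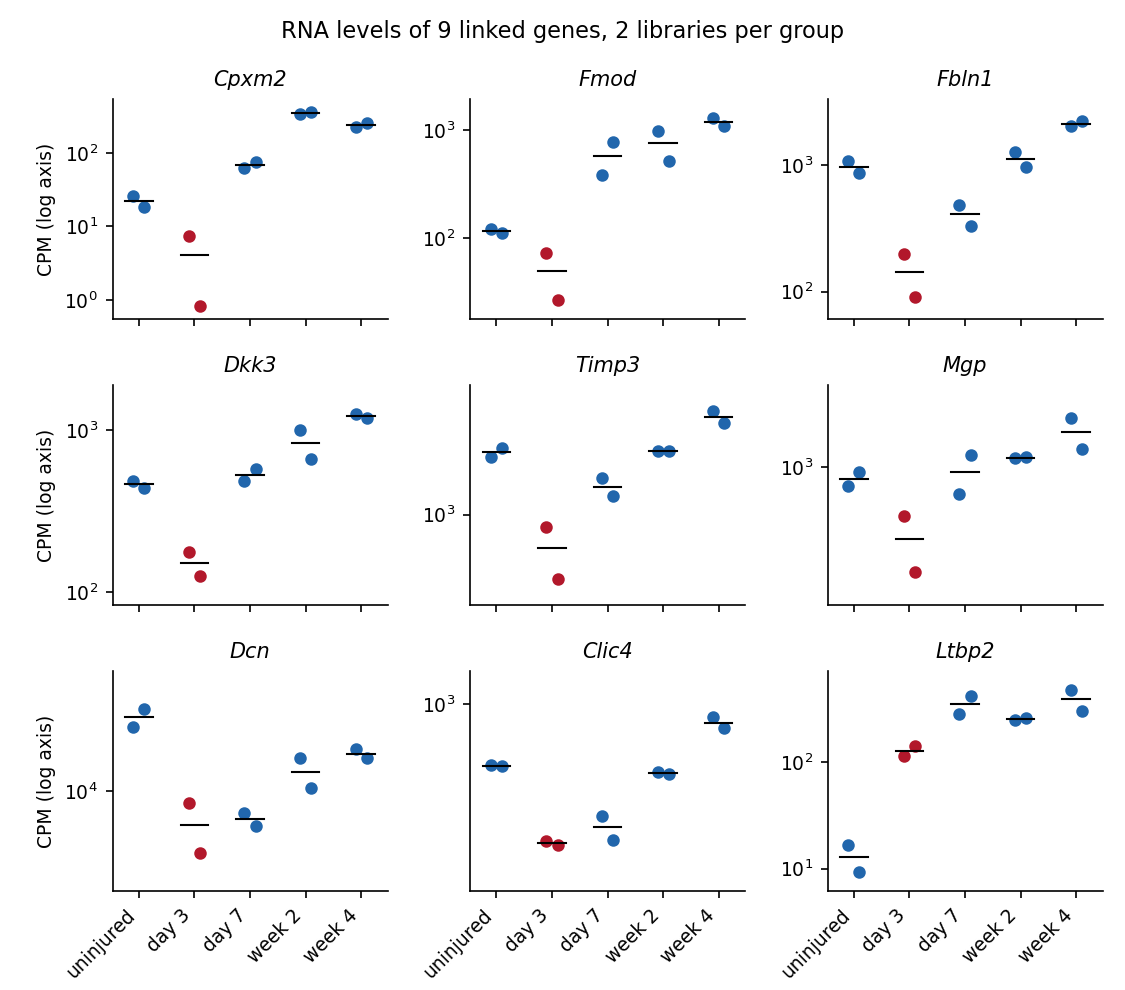
RNA level (CPM, log axis) of 9 linked genes in the 5 groups, 1 point per library (2 per group) with a bar at the mean; day 3 is in red. Both day 3 libraries are lowest for Cpxm2, Fmod, Fbln1, Dkk3, Timp3, Mgp and Clic4, and Ltbp2 is above its uninjured level at every time after MI.

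Other linked genes rose at day 3 while their region had no peak. Ttll5, a tubulin glutamylase gene, was at 12.8 and 15.4 CPM uninjured, 48.1 and 70.4 at day 3 and 45.3 and 63.4 at week 4, so it had risen and stayed up. Rbm3, a cold-inducible RNA-binding protein gene, was at 130 and 182 CPM uninjured, 526 and 520 at day 3 and 165 and 118 at week 4. Dclk1, a doublecortin-like kinase gene, was at 266 and 205, then 699 and 616, then 241 and 239 CPM at the same times. For Rbm3 and Dclk1 the log2 fold changes were 1.75 ± 0.23 and 1.48 ± 0.26 at day 3 (edgeR adjusted p = 0.00073 and 0.0032) and −1.89 ± 0.24 and −1.46 ± 0.26 at week 4 against day 3 (edgeR adjusted p = 0.00065 and 0.0036). Rai14 and Vapb rose at day 3 by 1.47 ± 0.43 and 1.28 ± 0.35 (edgeR adjusted p = 0.043 and 0.033), and both calls were lost without RNA day 3 library 2 or either uninjured library. The Rai14 call was also lost without either RNA day 7 library and with the replicate number as a block. The Vapb call was also lost without RNA day 3 library 1.

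Nasp encodes a histone chaperone used in replication. It had 3 wide neighbouring regions of 3517 to 5706 bp (chr4:116608446-116611962, chr4:116614134-116618028 and chr4:116618036-116623741), all present in both week 2 libraries. Its RNA was at 37.6 and 39.6 CPM uninjured, 89.3 and 84.0 at day 3, 25.5 and 47.7 at day 7, 48.1 and 61.4 at week 2, and 29.8 and 41.8 at week 4, so the highest RNA was at the time without peaks. It rose by 1.17 ± 0.33 at day 3 (edgeR adjusted p = 0.039), a call lost without any 1 uninjured or day 3 library or without week 4 library 2. Ints6, an Integrator complex gene with 3 regions, was at 46.7 and 69.3 CPM uninjured and 21.7 and 23.5 at day 3, which did not pass (edgeR adjusted p = 0.082), although it did with DESeq2, with no filter on low counts and without either RNA week 4 library. The 90 members of 2 kb or more, which include the 3 in Nasp, were linked to 79 tested genes with 8 higher and 9 lower at day 3 (10.1% and 11.4%, against 7.39% and 4.40% of all genes) and 11 higher and 11 lower at week 4 against day 3 (13.9% each, against 5.84% and 7.52%). The 104 genes linked only to narrower members had 11 and 11 (10.6% each) and 13 and 6 (12.5% and 5.77%) in the same comparisons.

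The pathway lists used here held at most 4 linked genes each. Linked were 3 of 30 resting fibroblast genes and 4 of 32 mesenchymal transcription factor genes, where 0.804% of all genes were. The lists were chosen with earlier results known, the length of gene spans was not considered, and these shares were not tested. Among 30 genes of resting fibroblasts, 20 were lower at day 3, and 10 higher and 1 lower at week 4 against day 3, with median log2 fold changes of −2.48 and 1.19. Of these 30, Fbln1, Mgp and C7 were linked. Mgp encodes matrix Gla protein, an inhibitor of calcification, and its region overlaps the gene's end and was present in all day 7 and week 2 libraries. Mgp RNA was at 791 and 940 CPM uninjured, 548 and 271 at day 3, 718 and 1161 at day 7, 1116 and 1135 at week 2, and 1849 and 1257 at week 4. Day 3 against uninjured missed the threshold (log2 fold change −1.08 ± 0.33, edgeR adjusted p = 0.055) but passed in 8 of 14 alternatives, DESeq2 among them, and week 4 was above day 3 by 1.92 ± 0.34 (edgeR adjusted p = 0.0037). C7, a complement component gene, was at 434 and 202 CPM uninjured and 78.4 and 10.7 at day 3, and passed in none of the 5 comparisons, although its fall at day 3 passed with DESeq2, with no filter on low counts and without RNA day 3 library 1.

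Among 30 injury and matrix genes, of which Fmod was linked, 20 were higher at day 3. Among 32 mesenchymal transcription factor genes 7 were lower and 2 higher at day 3, and 4 were linked. Of these, Nfia with 2 regions fell at day 3 by 1.12 ± 0.28 (edgeR adjusted p = 0.023), from 483 and 448 to 210 and 219 CPM, a call lost without any 1 uninjured or day 3 library. Foxp1 rose by 0.71 ± 0.20 (edgeR adjusted p = 0.041), from 115 and 127 to 193 and 203 CPM, a call kept in only 6 of 14 alternatives. The Foxp1 call was likewise lost without any 1 uninjured or day 3 library. It was also lost with no filter on low counts, without RNA day 7 library 2 and without either RNA week 4 library. Tbx20 and Zeb2, at 267 and 323 against 245 and 173 CPM and at 192 and 230 against 175 and 138 CPM, passed in no comparison.

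Of 35 tested TGF-beta and BMP pathway genes 5 were lower and 2 higher at day 3 and 10 higher at week 4 against day 3. The linked ones were Ltbp2 and Tgfbr1, the type I TGF-beta receptor gene with 2 neighbouring regions in its span (chr4:47367402-47369650 and chr4:47369776-47372632). Tgfbr1 was at 128 and 118 CPM uninjured, 88.8 and 98.9 at day 3, and 157 and 201 at week 4, and passed in no comparison, although week 4 against day 3 passed with no filter on low counts and without either RNA day 7 library. Among 22 AP-1 and immediate-early genes 5 were lower and 1 higher at day 3, and the linked Ier5 passed at week 4 against day 3 with a log2 fold change of 1.63 ± 0.38 (edgeR adjusted p = 0.015), from 15 and 16.2 to 63.9 and 32.6 CPM. This call was lost without either RNA day 3 library or RNA week 4 library 1. None of the 24 tested genes of glucocorticoid response and clock (6 lower at day 3) and none of the 30 cell cycle genes (21 higher at day 3) was linked. With 0.804% of all genes linked, lists this short can hold none without differing from other genes.

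Promoters of linked genes held a peak at day 3 in about the same share as promoters of all genes tested. Of the 132 linked tested genes with a RefSeq promoter window, 122 (92.4%) had a peak over it in each uninjured, each day 3 and each week 4 library, and 118 (89.4%) in all 10 libraries. The windows here run from 250 bases before to 50 after the start, and any of a gene's entries counted. Over all 11015 tested genes with a window on chromosomes 1 to 19 and X, 88.4% and 88.8% had one in the uninjured and 92.0% and 92.5% in the day 3 libraries. Of the 16 linked genes lower at day 3 with a window, 14 (87.5%) had a peak in both day 3 libraries. At Fbln1 the promoter peak had fold 25.9 and 27.3 uninjured and 19.9 and 21.2 at day 3, and at Timp3 31.2 and 33.2 and then 26.4 and 26.5. The C7 promoter had fold 8.74 and 9.27 uninjured, 4.56 and 3.06 at day 3 and no peak in either day 7 library.

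Markers of other cell types moved over the same times. None of the genes on those short lists was linked to a member, where 0.804% of all genes were. The summed level of 14 endothelial markers was 922 and 792 CPM uninjured, 464 and 343 at day 3, 1090 and 1404 at day 7, 916 and 890 at week 2, and 955 and 883 at week 4, with 8 of the 14 lower at day 3 and 8 higher at week 4 against day 3. This sum was lowest at day 3 and higher afterwards, as was the RNA of the linked genes Fbln1, Dkk3 and Timp3 but not that of Ltbp2. The 18 macrophage and monocyte markers summed to 84.8 and 96.2 CPM uninjured, 823 and 1363 at day 3, 2181 and 3762 at day 7, 576 and 686 at week 2, and 192 and 286 at week 4, with 12 higher at day 3. Pericyte and smooth muscle markers were also lowest at day 3. They summed to 1024 and 470 CPM uninjured, 376 and 311 at day 3, 1063 and 1465 at day 7, and 746 and 874 at week 4, with a highest value of 1548. Erythroid markers summed to 4132 and 5986 CPM uninjured, 1205 and 142 at day 3, 800 and 1164 at day 7, and 1913 and 2325 at week 4. Cardiomyocyte markers summed to 46.1 to 222 CPM and lymphocyte markers to 0.1 to 7.7. The 11 cardiac fibroblast markers, Tcf21, Pdgfra and collagen genes among them, summed to 23938 to 69420 CPM with the lowest value in day 3 library 2. Of these 11, 4 were higher and 6 lower at day 3, and Dcn and Fbln1 were linked to members. The part of other cell types in the lost peaks and in the RNA differences was not tested.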

How the data were processed

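ATAC-seq and RNA-seq were measured in 10 libraries each. Per the submitters' processing notes, the tools were Trim Galore 0.6, FastQC, STAR 2.5.3a, DESeq2, Bowtie2 2.3 and MACS2 with builds mm10 and GRCm38, and no role is given for any of them. The deposited RNA table holds expected counts (estimated counts) per gene, unscaled. The deposited peak lists, 1 per library, give each peak a fold enrichment (a ratio), a −log10 of its p and q, and a score, 10 times that of q without decimals. For peak thresholds, the counting program and strand, the sources used here give nothing.

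Peaks were merged with pandas 2.3.3, and the members and gene lists were chosen with earlier results of these data known. Expected counts were rounded and fitted in R 4.3.3 with edgeR 4.0.16 (TMM, filterByExpr, robust quasi-likelihood, all 10 libraries, group only, 5 residual degrees of freedom, 0.05). CPM use TMM-scaled library sizes, and SE is the log2 fold change over the root of F. The edgeR fit and the region rule were tested on simulated data. Counting error sets the precision of low counts, and amplified reads are not independent molecules.

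Named genes were linked tested genes: up to 12 lower at day 3 and higher at week 4 against day 3, by size of the latter, and up to 6 higher at day 3, both with mean log2 CPM of 3 or more and without predicted, mitochondrial and ribosomal genes; the 8 with most regions; and up to 4 per pathway list, by number of regions and then CPM. Named regions were the 8 with the highest minimum fold and those of the named genes. Alternatives were a stricter q, lists of equal length, summit windows, no day 3 peak within 500 bp, links within 20 kb, DESeq2 1.42.0, its size factors, no count filter, the replicate number as a block and leaving out each library. The sequences of whole regions were not analysed here. Of the printed sequences, the Gm52214 window and the microRNAs lie inside members.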

Additional observations from a re-analysis of the deposited data

How the results depend on the processing

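Which regions meet the rule depended on the processing. With peaks of −log10 q of 5 or more, 159 regions met the rule, with 28.9% in both day 7 and 65.4% in both week 2 libraries. They overlapped 44 of the 248. Of 119 linked genes tested, 12 were higher and 18 lower at day 3 (10.1% and 15.1%, all genes 7.39% and 4.40%). Against day 3, day 7 gave 7 higher and 2 lower, and week 2 gave 19 and 5. Week 4 gave 20 and 6 against day 3 (16.8% and 5.04%, all genes 5.84% and 7.52%), and 8 and 1 against uninjured. With each list held to its strongest 63882 peaks, 1797 regions met it (180 of the 248 overlapped), 29.5% in both day 7 libraries, with higher and lower linked genes of 78 and 120 at day 3, 28 and 7, 121 and 50, and 146 and 65 at day 7, week 2 and week 4 against day 3, and 42 and 10 at week 4 against uninjured, of 1135 tested (day 3: 6.87% and 10.6%, week 4 against day 3: 12.9% and 5.73%; all genes: 7.39% and 4.40%, 5.84% and 7.52%). With 200 bp summit windows, 890 met it (113 overlapped), 43.0% in both day 7 libraries. Of 708 linked genes tested, 58 were higher and 55 lower at day 3 (8.19% and 7.77%). Against day 3, day 7 gave 5 and 6 (0.706% and 0.847%) and week 2 gave 43 and 29 (6.07% and 4.1%). Week 4 gave 68 and 33 against day 3 (9.60% and 4.66%), and 30 and 6 against uninjured (4.24% and 0.847%). The cause of these shifts was not tested, beyond the number of peaks each setting keeps. Dropping the 22 regions near a day 3 peak, linking within 20 kb, linking overlapped genes by the shortest span (chosen after seeing the data) and DESeq2 size factors kept all counts within 1.5 times.

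Without a count filter, linked genes were 39 lower at day 3, 14 higher and 6 lower at day 7, 38 higher at week 2 and 39 higher at week 4 against day 3, and 18 higher and 7 lower at week 4 against uninjured. DESeq2 gave 34, 13 and 10, 33, and 14 and 7 for these, without week 4 against day 3, where it stayed within 1.5 times. The cause was not tested. The shares called over all genes in these fits are not given here, so the shifts cannot be read as particular to the linked genes.

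Leaving out 1 library gave 370 to 562 member regions, since each omission relaxes the rule (562 without day 3 library 1, 469 without day 3 library 2, 460 without uninjured library 1, 462 without week 4 library 2), with 13.9% to 35.2% in both day 7 and 41.6% to 66.0% in both week 2 libraries. Over omissions from either assay, linked genes were 6 to 32 higher and 7 to 49 lower at day 3, 1 to 12 and 0 to 4 at day 7, 6 to 47 and 3 to 22 at week 2, 9 to 57 and 4 to 33 at week 4 against day 3, and 2 to 17 and 0 to 6 at week 4 against uninjured. In such fits the lone library is assumed to vary like the other groups. The shares called over all genes in them are not given here, so these counts cannot be read as particular to the linked genes. Of 37 calls on named genes, 18 were kept in all 14 alternatives and 0 reversed.

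The replicate numbers did not pair the libraries (correlations of deviations between same-numbered libraries −0.0181 to 0.0288). With the replicate block, 18 linked genes were higher and 23 lower at day 3 and 26 and 17 at week 4 against day 3. The shares over all genes with the block are not given here. Of the named genes, the block ended the call of Rai14 at day 3. Depth of the ATAC-seq libraries is unknown, so loss below a peak threshold cannot be told from loss of accessibility.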

Other observations

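Besides the genes of the stated rule, other linked genes stood out, and they were chosen here after their values were seen. Lrp5, a Wnt co-receptor gene, and Atf5, a stress-response transcription factor gene, were higher at week 4 than at day 3, by 3.10 and 1.98 on the log2 scale (edgeR adjusted p = 0.0045 and 0.0029), and higher than uninjured by 3.497 and 1.54 (edgeR adjusted p = 0.0087 and 0.031). Epas1, which encodes a hypoxia-inducible transcription factor, and Gab2, a signalling adaptor gene, were higher at week 4 than at day 3 by 1.84 and 2.57 (edgeR adjusted p = 0.0079 and 0.0032). Of the 11 genes with a rise at day 3 and a fall by week 4, Eif1a and Etf1, a translation initiation and a termination factor gene, were lower at week 4 than at day 3 by −1.09 and −1.24 (edgeR adjusted p = 0.0092 and 0.014), and G3bp1, of stress granules, by −0.75 (edgeR adjusted p = 0.033).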
